A study of Mus musculus with 8 samples.

Results

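The clotting and complement systems of blood plasma are supplied mostly by the liver, and 40 genes of these systems were followed here in livers of mice with and without Pkd1l1, a gene of the polycystin family. Of the 40 genes, 24 belong to coagulation and 16 to complement. They were chosen by name, as genes of plasma clotting, fibrinolysis and complement, and each was found once among the 27110 genes of the deposited count table. The study sequenced total RNA of 8 livers at week 7. The LKO group holds 4 female livers with a liver-restricted deletion of Pkd1l1 (replicates 3, 4, 12 and 13). The Fl/Fl group holds 4 control livers with the floxed gene, of which replicates 5, 7 and 9 are female and replicate 10 is male. All 8 are labelled NT for treatment. The Cre line behind the deletion, the strain and the litters are not given in the sources used here.

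Coagulation is a chain of serine proteases that ends with thrombin, which cuts fibrinogen into fibrin. Complement is a second chain of plasma proteases, started by antibody, by sugars on microbes or by spontaneous activation, that converges on C3 and ends in a pore made of C5 to C9. Hepatocytes make most of these proteins, and several are acute phase proteins whose output changes with inflammation.

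The libraries held 71491723 to 76622375 counted reads, and all 40 genes were among the 16420 that passed the filter on low counts. Levels are CPM, the counts scaled to library size with TMM factors, and means carry their SD (LKO n = 4, female Fl/Fl n = 3). Each fold change, on the log2 scale and with its standard error, sets LKO against female Fl/Fl by edgeR's quasi-likelihood test, with a sex term that sets the male library apart, and p-values were adjusted by Benjamini-Hochberg over all 16420 tested genes. Pkd1l1 itself was almost silent, with 0, 0, 0 and 2 reads in LKO 3, 4, 12 and 13, against 0, 1, 1 and 0 reads in Fl/Fl 5, 7, 9 and 10, so its counts cannot check the labels. The livers were labelled with hepatocytes and cholangiocytes as cell type. Both showed in the RNA, with 7 of 7 hepatocyte markers tested and summing to 119391 to 136643 CPM in LKO and 125955 to 130718 CPM in female Fl/Fl, and with 7 of 8 cholangiocyte markers tested and summing to 53.8 to 64.9 CPM in LKO and 64.8 to 78.2 CPM in female Fl/Fl.

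The libraries also differed in the state of the circadian clock, within both genotypes. Dbp, a clock-controlled transcription factor, held 0.606, 1.64, 54.4 and 42.2 CPM in LKO 3, 4, 12 and 13, against 2.46, 3.5004 and 26.8 CPM in Fl/Fl 5, 7 and 9 and 46.1 CPM in the male Fl/Fl library. Fl/Fl 9 was thus the 1 female control at high Dbp. Some of the 40 genes split by the same libraries within LKO, in both directions. F11 was at 72.7 and 72.8 CPM in LKO 3 and 4 and at 90.8 and 94.97 CPM in LKO 12 and 13. F12 went the other way, at 529 and 542 CPM in LKO 3 and 4 and at 512 and 501 CPM in LKO 12 and 13. Chance often gives such a split with so few libraries, and the share over all tested genes was not counted. With a term for clock state (Dbp over 10 CPM or not) in the edgeR fit, a setting chosen after seeing the data, 0 of the 40 genes passed, where 2.15% of all tested genes did. At an unadjusted p under 0.05 that fit listed 10 of the 40, where 17.2% of all tested genes passed. These were F12, Cfb and C8g on the higher side and F11, F13b, Fgg, Cpb2, C6, C8a and C8b on the lower.

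Between LKO and female Fl/Fl, 0 of the 24 coagulation genes and 0 of the 16 complement genes passed an adjusted p of 0.05 with edgeR, where 1.41% of all tested genes did, 1.02% on the higher side and 0.396% on the lower. DESeq2 called 0 of the 40, where 5.36% of its genes with an adjusted p passed. With limma on log2(FPKM + 1) 0 of the 40 passed, where 105 genes passed on the higher side and 35 on the lower, of 16420. At an unadjusted p under 0.05 edgeR listed 4 coagulation genes, namely F12 on the higher side and Cpb2, Fgg and F13b on the lower, and 2 complement genes, Cfb and Mbl2, both on the higher side. That threshold took in 16.1% of all tested genes. The median log2 fold change was -0.08 over coagulation and 0.03 over complement, beside -0.0032 over all tested genes. In bulk tissue, fewer cells of a type and less RNA per cell cannot be told apart.

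**Figure D1:**
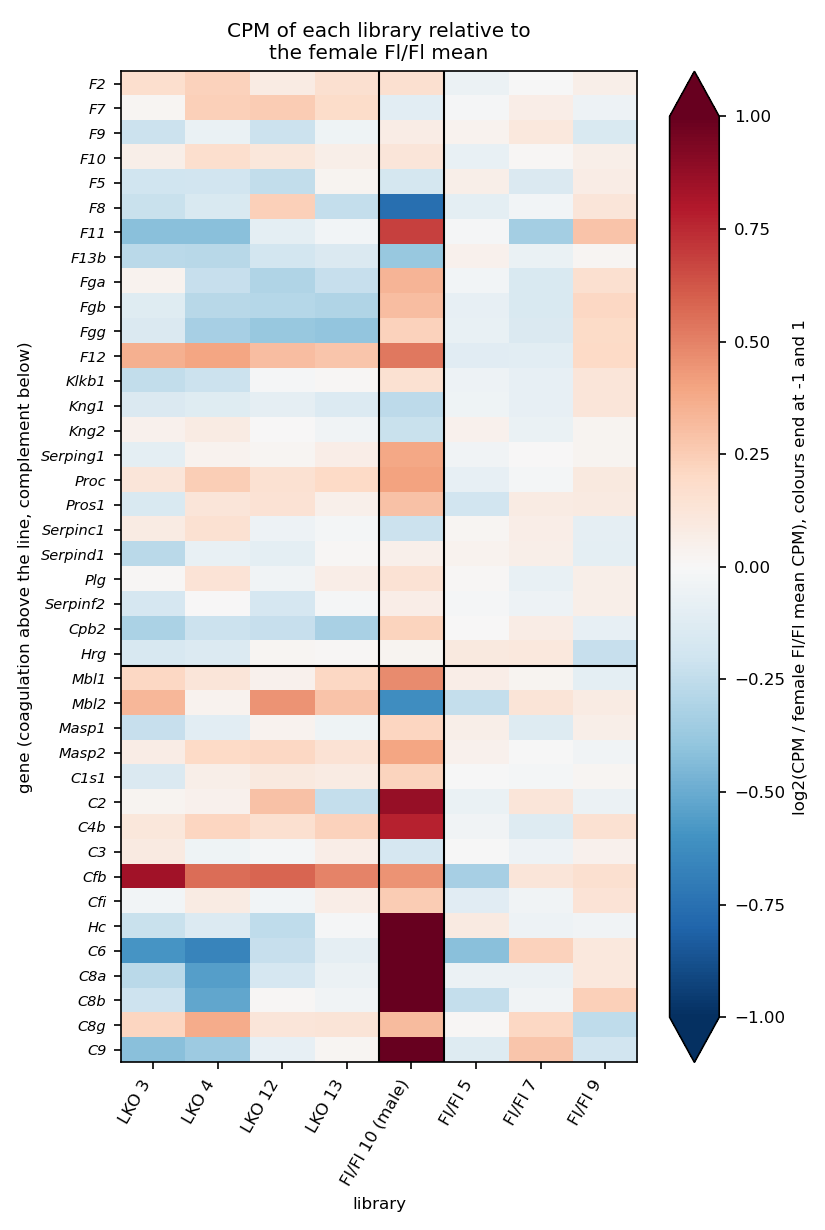
Each row is a gene and each column a library, and the colour is log2 of the library's CPM over the mean CPM of the 3 female Fl/Fl libraries, with colours ending at -1 and 1. The 4 LKO columns are pale for most genes, while the male Fl/Fl column is dark for the terminal complement genes Hc, C6, C8a, C8b and C9.

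The intervals set limits on what could have gone unseen. The 95% interval of the log2 fold change lay within 0.5 of no difference for 32 of the 40 genes, 21 of coagulation and 11 of complement. It lay within 1 for 39, the exception being Cfb. The groups did not overlap in CPM for 8 of 24 coagulation genes and 3 of 16 complement genes, where this held for 15.1% of all tested genes. The share was 8.85% for LKO above and 6.22% for LKO below. LKO lay above every female Fl/Fl library for F2, F10, F12, Proc, Masp2 and Cfb, and below every one for F13b, Fgg, Kng1, Cpb2 and C8a. The coefficient of variation over the 7 female libraries had a median of 8.80% in coagulation and 10.3% in complement, against 17.3% over all tested genes, which include genes of far lower counts.

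**Figure D2:**
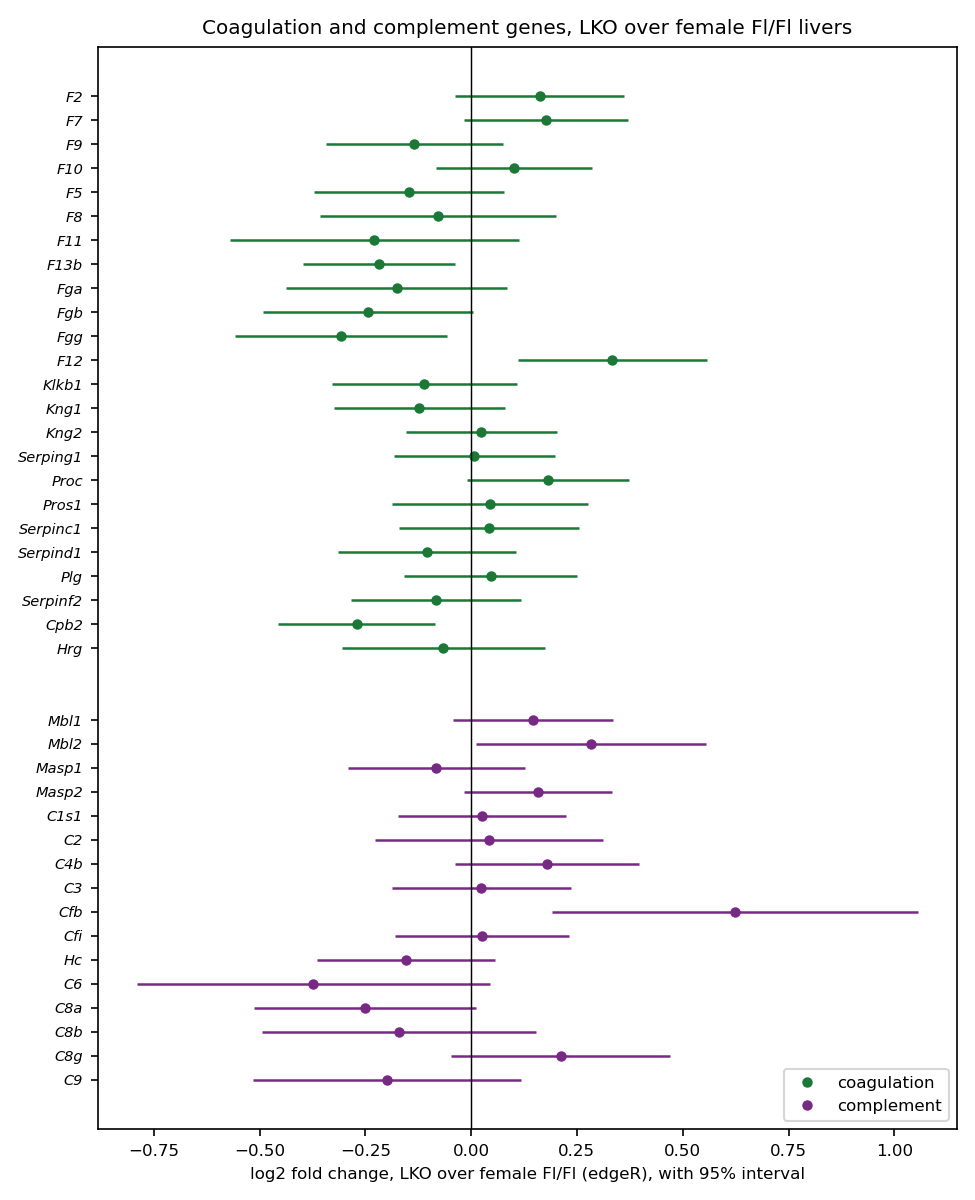
Points show the log2 fold change between LKO and female Fl/Fl (edgeR, sex term in the model) and lines their 95% intervals, with coagulation genes above and complement genes below. Cfb has the widest reach, from 0.19 to 1.06, and the 3 fibrinogen chains all lie left of 0.

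Levels between genes were compared on the deposited FPKM scale, which accounts for gene length. C3, the protein on which all complement routes converge, was the most abundant at 2242 ± 104 FPKM in LKO and 2207 ± 82.3 FPKM in female Fl/Fl. The fibrinogen chains followed, Fga at 1388 ± 154 against 1570 ± 179 FPKM, Fgg at 1323 ± 111 against 1641 ± 213 FPKM and Fgb at 958 ± 59.7 against 1137 ± 158 FPKM in LKO and female Fl/Fl. In female Fl/Fl, Fgg and Fga differed by less than their summed SDs, while C3 and Fgg, and Fga and Fgb, differed by more. Kng1 and Plg came next, and then Hrg, Serpinf2, F2 and Mbl2, from 672 FPKM for Kng1 down to 378 FPKM for Mbl2 in female Fl/Fl. Neighbours among these differed by less than their summed SDs, except Plg at 592 FPKM and Hrg at 440 FPKM. At the low end stood Pros1 at 17.8 ± 1.57 against 17.2 ± 1.86 FPKM, C6 at 7.22 ± 1.38 against 9.36 ± 2.10 FPKM, C2 at 5.63 ± 0.818 against 5.47 ± 0.391 FPKM, F8 at 2.43 ± 0.392 against 2.57 ± 0.216 FPKM and Cfb at 1.095 ± 0.122 against 0.711 ± 0.129 FPKM. The low places of Cfb and C2 are uncertain, because both share many exonic bases with Gm20547, a gene with no deposited counts. How reads in shared exons were counted is not given. Reads of the 24 coagulation genes made up 2.48 ± 0.0840% of an LKO library, against 2.72 ± 0.193% of a female Fl/Fl library. Those of the 16 complement genes made up 1.63 ± 0.0767% in LKO and 1.64 ± 0.0646% in female Fl/Fl.

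Of the vitamin K-dependent clotting factors, F7 had the smallest p. It encodes factor VII, the protease that starts clotting together with tissue factor. F7 (ENSMUSG00000031443, chromosome 8, 13026034 to 13035809, mm10) stood at 126, 147, 149 and 141 CPM in LKO, against 123, 130 and 120 CPM in female Fl/Fl. The groups overlapped in LKO 3 and Fl/Fl 7 (log2 0.18 ± 0.09, adjusted p = 0.355). F10, the next gene along the chromosome at 1.5 kb from F7, encodes the protease that makes thrombin and stood at 450 ± 16.2 CPM in LKO and 420 ± 18.7 CPM in female Fl/Fl (log2 0.10 ± 0.08). F2, which encodes prothrombin, was at 1927 ± 81.7 and 1723 ± 73.2 CPM (log2 0.16 ± 0.09, adjusted p = 0.409). F9, the X-linked protease lacking in haemophilia B, was at 210 ± 13.3 and 231 ± 21.3 CPM (log2 -0.13 ± 0.09).

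The cofactors and remaining clotting factors had negative fold changes in all 4 cases, and none passed. F13b, the carrier subunit of the enzyme that cross-links fibrin (chromosome 1, 139501702 to 139523752), held 217, 215, 230 and 235 CPM in LKO, against 269, 250 and 264 CPM in female Fl/Fl. Every LKO library was below every female Fl/Fl library (log2 -0.22 ± 0.08, adjusted p = 0.224). Lower still, at 201 CPM, lay the male Fl/Fl library. F11, the protease that amplifies clotting, was at 82.8 ± 11.7 CPM in LKO and 97.0 ± 20.7 CPM in female Fl/Fl (log2 -0.23 ± 0.15), and F5, the cofactor of factor X, at 617 ± 53.6 and 682 ± 56.3 CPM (log2 -0.15 ± 0.10).

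F8 encodes the cofactor lacking in haemophilia A, which in liver is made by endothelial cells rather than hepatocytes. It stood at 23.2 ± 3.84 CPM in LKO and 24.5 ± 1.95 CPM in female Fl/Fl (log2 -0.08 ± 0.13, adjusted p = 0.817). The 8 sinusoidal endothelial markers summed to 365 to 417 CPM in LKO and 344 to 432 CPM in female Fl/Fl, and none of the 8 passed the test or was at 0. In the male Fl/Fl library F8 was at 14.5 CPM, and the endothelial markers summed to 277 CPM, with 6 of 8 below every female library, where 20.3% of all tested genes were; their part in the F8 value was not tested.

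Fibrinogen is built of chains encoded by Fga, Fgb and Fgg, which lie together on chromosome 3 within 42.1 kb (83007724 to 83049863). No other listed gene lies wholly in the gaps between them. In GENCODE M21, Gm30097, a listed gene on the other strand, shares 5.5% of the exonic bases of Fgg. Fgg, the gamma chain, held 2991, 2628, 2541 and 2517 CPM in LKO, against 3145, 2995 and 3774 CPM in female Fl/Fl. Every LKO library was below every female Fl/Fl library, with LKO 3 just under Fl/Fl 7 (log2 -0.31 ± 0.11, adjusted p = 0.215). Fgb, the beta chain, held 3839, 3433, 3413 and 3392 CPM in LKO, against 3948, 3755 and 4807 CPM in female Fl/Fl. LKO 3 lay above Fl/Fl 7, so the groups overlapped (log2 -0.24 ± 0.11, adjusted p = 0.316). Fga, the alpha chain, held 4670, 3871, 3685 and 3886 CPM in LKO, against 4472, 4095 and 5080 CPM in female Fl/Fl, with LKO 3 again inside the control range (log2 -0.18 ± 0.12, adjusted p = 0.512).

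The chains kept similar proportions in all libraries, although Fgg relative to Fgb did not overlap between LKO and female Fl/Fl. For each Fgb read there were 0.742 to 0.779 Fgg reads in LKO libraries, against 0.785 to 0.798 in those of female Fl/Fl, and 1.08 to 1.22 Fga reads in LKO, against 1.06 to 1.13 in female Fl/Fl. The male Fl/Fl library, at 0.750 Fgg reads for each Fgb read, lay inside the LKO range. How many other gene pairs split so was not counted. LKO 3 was the highest LKO library and Fl/Fl 9 the highest female Fl/Fl library for each chain. The 3 chains together took 1.01 ± 0.0925% of an LKO library, against 1.22 ± 0.158% of a female Fl/Fl library. The male Fl/Fl library lay above all 7 female libraries for each of them, at 5773 CPM of Fga, 5158 CPM of Fgb and 3869 CPM of Fgg.

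**Figure D3:**
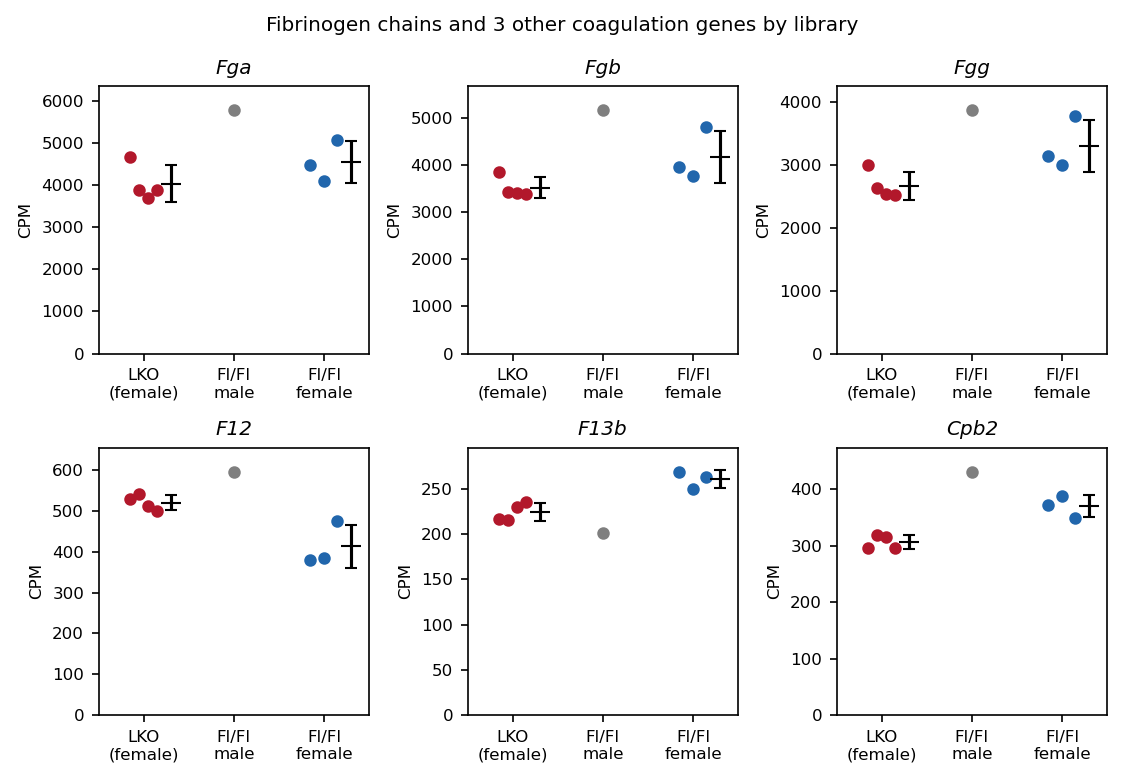
Points are CPM per library for LKO (4 female livers), male Fl/Fl (1) and female Fl/Fl (3), with black bars for mean ± SD of LKO and female Fl/Fl. F13b and Cpb2 of LKO lie below and F12 above all female Fl/Fl points, while the Fga and Fgb points of LKO and female Fl/Fl overlap.

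The promoter windows of the fibrinogen genes are shown because the chains varied together across libraries. They are RefSeq sequences (GRCm38.p6) of 300 bases, from 250 before to 50 after the RefSeq transcript start, 5′ to 3′ on the gene's strand. The RefSeq start of Fga lies 77 bases from the start in the deposited table, and those of Fgb and Fgg coincide with it. Capitals mark matches, on either strand, to a motif of the liver factor HNF1 (GTTAAT), to a C/EBP motif (TTGCNNAA) or to a STAT motif (TTCNNNGAA). No match overlaps another in these windows.
Fga, chr3:83025903-83026202, plus strand: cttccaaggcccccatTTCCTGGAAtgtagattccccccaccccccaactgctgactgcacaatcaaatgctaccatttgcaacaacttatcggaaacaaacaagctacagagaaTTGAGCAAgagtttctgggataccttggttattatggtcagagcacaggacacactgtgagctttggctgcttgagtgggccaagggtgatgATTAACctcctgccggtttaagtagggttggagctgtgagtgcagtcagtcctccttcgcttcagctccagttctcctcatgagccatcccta
Fgb, chr3:83049814-83050113, minus strand: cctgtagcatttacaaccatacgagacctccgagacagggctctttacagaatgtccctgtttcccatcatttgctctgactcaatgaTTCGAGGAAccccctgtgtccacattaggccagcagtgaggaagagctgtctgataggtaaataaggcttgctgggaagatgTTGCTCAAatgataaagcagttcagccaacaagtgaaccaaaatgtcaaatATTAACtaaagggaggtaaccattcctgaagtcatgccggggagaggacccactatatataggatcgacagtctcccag
Fgg, chr3:83007474-83007773, plus strand: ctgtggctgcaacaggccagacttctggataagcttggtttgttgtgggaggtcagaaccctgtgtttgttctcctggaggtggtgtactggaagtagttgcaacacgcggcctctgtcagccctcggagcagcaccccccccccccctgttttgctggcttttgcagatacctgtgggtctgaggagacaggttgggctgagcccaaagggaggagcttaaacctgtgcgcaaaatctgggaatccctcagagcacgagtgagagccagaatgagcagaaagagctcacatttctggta

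Fga and Fgb each held 1 match to each of the 3 motifs, in the same order from the STAT motif to the HNF1 motif nearest the start, and Fgg held none of these letters in its window. Over 32851 promoter windows of the genome, 7.1% held the HNF1 motif, 10.8% the C/EBP motif and 8.3% the STAT motif. Windows were at hand for 31 of the 40 genes, and 7, 12 and 6 of these genes held the HNF1, C/EBP and STAT motifs. Windows for C2, C4b, Cfb, Cfi, Kng1, Masp1, Plg, Proc and Serping1 were not used. The matches describe the letters and do not show binding.

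Within the contact system, which starts clotting on negatively charged surfaces and releases bradykinin, F12 stood out by its p. It encodes factor XII, the first protease of that route (chromosome 13, 55417958 to 55426793). F12 held 529, 542, 512 and 501 CPM in LKO, against 381, 384 and 475 CPM in female Fl/Fl. LKO lay above every female Fl/Fl library, with Fl/Fl 9 nearest (log2 0.33 ± 0.10, adjusted p = 0.138). Without Fl/Fl 9 the log2 fold change was 0.44 ± 0.09 and passed (adjusted p = 0.0177), the 1 call among the 40 genes in any of the 17 other settings. In that setting 4.34% of all tested genes passed, against 1.41% with all libraries. In the male Fl/Fl library F12 was at 596 CPM, above all 7 female libraries.

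The other contact genes differed by less. Klkb1, plasma prekallikrein, lies 4.7 kb from F11 and stood at 184 ± 17.3 CPM in LKO and 198 ± 14.9 CPM in female Fl/Fl (log2 -0.11 ± 0.10). In GENCODE M21 it shares 43.2% of its exonic bases with Gm45753 on the same strand, and Serpinc1 shares 34.4% with Zbtb37 on the other strand. The kininogens Kng1 and Kng2, which carry bradykinin, stood at 1930 ± 31.7 against 2101 ± 159 CPM (log2 -0.12 ± 0.09) and at 295 ± 9.87 against 290 ± 11.9 CPM (log2 0.02 ± 0.08) in LKO and female Fl/Fl. They are close paralogs, 28.4 kb apart on chromosome 16, so the split of reads between them is uncertain. Serping1, the C1 inhibitor that restrains proteases of the contact and complement systems, was at 680 ± 33.6 CPM in LKO and 676 ± 15.6 CPM in female Fl/Fl (log2 0.0080 ± 0.09).

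Of the anticoagulants, Proc had the smallest p. It encodes protein C, which degrades the clotting cofactors V and VIII (chromosome 18, 32123129 to 32139570). Proc held 429, 470, 441 and 455 CPM in LKO, against 373, 391 and 423 CPM in female Fl/Fl. The LKO libraries lay just above the female Fl/Fl range (log2 0.18 ± 0.09, adjusted p = 0.335). Its cofactor Pros1, protein S, stood at 70.0 ± 6.35 CPM in LKO and 67.8 ± 7.24 CPM in female Fl/Fl. Serpinc1, antithrombin, stood at 2262 ± 147 and 2197 ± 120 CPM, and Serpind1, heparin cofactor II, at 578 ± 45.8 and 621 ± 34.6 CPM. The log2 fold changes of these last genes ran from -0.10 to 0.05.

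Among the genes of fibrinolysis, which dissolves clots, Cpb2 had the smallest p. It encodes a carboxypeptidase that protects fibrin from plasmin (chromosome 14, 75242287 to 75283555). Cpb2 held 296, 319, 316 and 295 CPM in LKO, against 371, 389 and 349 CPM in female Fl/Fl. No LKO library reached the lowest female Fl/Fl library (log2 -0.27 ± 0.08, adjusted p = 0.1498). In the male Fl/Fl library Cpb2 was at 431 CPM, above all 7 female libraries. It was also the gene with the smallest adjusted p among the 40 in the authors' deposited table, which compares LKO with all 4 Fl/Fl libraries (log2 -0.33, adjusted p = 0.127). Plg, plasminogen, stood at 2184 ± 114 CPM in LKO and 2116 ± 100 CPM in female Fl/Fl. Serpinf2, the plasmin inhibitor, stood at 879 ± 57.2 and 931 ± 36.2 CPM. Hrg, a plasma glycoprotein that binds plasminogen and heparin, stood at 808 ± 53.4 and 845 ± 107 CPM.

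Of 32 other clotting and fibrinolysis genes, 31 were tested, 1 fell, 0 rose and 30 did not pass. Over all tested genes 0.396% fell and 1.02% rose. The one that fell was F3, tissue factor, the membrane receptor of factor VII. It held 1.53, 1.06, 1.64 and 1.60 CPM in LKO, against 3.12, 3.67 and 4.34 CPM in female Fl/Fl (log2 -1.34 ± 0.21, adjusted p = 0.0175). With 1.34 CPM, the male Fl/Fl library lay inside the LKO range, and the call was lost with no sex term, without LKO 4 or 13 and without Fl/Fl 5 or 7, alone or together. Next by p was Hgfac, a plasma protease that activates hepatocyte growth factor, at 264 ± 16.9 CPM in LKO and 218 ± 14.97 CPM in female Fl/Fl (log2 0.28 ± 0.09, adjusted p = 0.168). Ggcx, which carboxylates the vitamin K-dependent factors, and Vkorc1, which recycles vitamin K, had log2 fold changes of -0.09 ± 0.10 and -0.05 ± 0.15.

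In the lectin pathway, in which mannose-binding lectins recognise microbial sugars and activate the MASP proteases, Mbl2 had the smallest p. Mbl2 (chromosome 19, 30232928 to 30239685) held 504, 412, 548 and 489 CPM in LKO, against 340, 439 and 423 CPM in female Fl/Fl. LKO 4 lay inside the female Fl/Fl range, and the male Fl/Fl library, at 261 CPM, was below all 7 female libraries (log2 0.28 ± 0.12, adjusted p = 0.289). Its paralog Mbl1 stood at 153 ± 8.45 CPM in LKO and 138 ± 8.002 CPM in female Fl/Fl (log2 0.15 ± 0.09), with 191 CPM in the male library. The protease Masp2 stood at 135 ± 5.77 and 121 ± 3.14 CPM (log2 0.16 ± 0.08, adjusted p = 0.357), and Masp1 at 209 ± 16.1 and 222 ± 16.5 CPM (log2 -0.08 ± 0.09). In GENCODE M21, 54.9% of the exonic bases of Masp2 are also exonic in Tardbp on the other strand, and the strand setting of the counts is not given.

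In the classical pathway, C4b had the smallest p. It encodes complement C4, which is cleaved to build the C3 convertase (chromosome 17, 34728380 to 34743882). C4b held 1405, 1509, 1450 and 1523 CPM in LKO, against 1269, 1186 and 1444 CPM in female Fl/Fl, with LKO 3 inside the female Fl/Fl range (log2 0.18 ± 0.10, adjusted p = 0.400). C4b was at 2219 CPM in the male Fl/Fl library. C4a, a close paralog known in mice as the sex-limited protein, stood at 6.23 ± 0.628 CPM in LKO and 4.502 ± 0.679 CPM in female Fl/Fl and at 66.0 CPM in the male library, and the split of reads between the 2 genes is uncertain. C1s1, a protease of the C1 complex, stood at 327 ± 25.0 CPM in LKO and 322 ± 5.03 CPM in female Fl/Fl. C2, the partner of C4 in the convertase, differed by log2 0.04 ± 0.12 between LKO and female Fl/Fl, and stood at 37.3 CPM in the male library.

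C3 held 11598, 10613, 10787 and 11456 CPM in LKO, against 10919, 10575 and 11286 CPM in female Fl/Fl, and the ranges overlapped almost wholly (log2 0.02 ± 0.10, 95% interval -0.19 to 0.24, adjusted p = 0.935). Cfi, the protease that inactivates C3b, stood at 666 ± 27.2 CPM in LKO and 655 ± 59.4 CPM in female Fl/Fl (log2 0.03 ± 0.09). Cfb encodes factor B, the protease of the alternative pathway (chromosome 17, 34856374 to 34862518). It held 3.46, 2.85, 2.90 and 2.72 CPM in LKO, against 1.54, 2.10 and 2.17 CPM in female Fl/Fl. LKO lay above every female Fl/Fl library (log2 0.62 ± 0.20, adjusted p = 0.152). Of its 2825 exonic bases in GENCODE M21, 79.5% are also exonic in Gm20547, a gene on the same strand with no deposited counts. The same holds for 42.8% of the exonic bases of C2. How reads in shared exons were counted is not given, and the part of this overlap in the levels and fold changes of Cfb and C2 was not tested.

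The terminal genes encode the proteins of the membrane attack complex. Their fold changes were negative for 5 of 6 genes between LKO and female Fl/Fl, and none passed. C8a, the alpha chain of C8 and the terminal gene with the smallest p (chromosome 4, 104815679 to 104876398), held 295, 242, 317 and 341 CPM in LKO, against 342, 342 and 383 CPM in female Fl/Fl. Every LKO library was below every female Fl/Fl library, with LKO 13 just under Fl/Fl 5 (log2 -0.25 ± 0.12, adjusted p = 0.331). C6, which binds C5b and starts the pore, held 21.3, 20.3, 27.3 and 30.1 CPM in LKO, against 23.9, 37.7 and 34.5 CPM in female Fl/Fl (log2 -0.37 ± 0.18, adjusted p = 0.365). C9, which polymerises into the pore, held 215, 223, 271 and 290 CPM in LKO, against 261, 347 and 251 CPM in female Fl/Fl (log2 -0.20 ± 0.14). For C6 and C9 the 2 groups overlapped. C8b, the beta chain of C8, stood at 184 ± 29.2 CPM in LKO and 207 ± 34.7 CPM in female Fl/Fl (log2 -0.17 ± 0.15), and Hc, which encodes C5, at 775 ± 58.6 and 862 ± 47.9 CPM (log2 -0.15 ± 0.10). C8g, the gamma chain of C8, stood at 282 ± 22.9 and 243 ± 38.3 CPM (log2 0.21 ± 0.12). With the clock term, log2 fold changes were -0.45 ± 0.15 for C6, -0.30 ± 0.10 for C8a and -0.23 ± 0.10 for C8b. They were -0.23 ± 0.15 for C9, -0.16 ± 0.10 for Hc and 0.26 ± 0.09 for C8g, and none passed.

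The male Fl/Fl library stood far above both female groups for the terminal genes, which were named here after their values were seen. It held 504 CPM of C6, 15.7 times the female Fl/Fl mean of 32.1 CPM. It held 1219 CPM of C9 (4.26 times the female Fl/Fl mean), 1187 CPM of C8a (3.34 times), 642 CPM of C8b (3.09 times) and 1760 CPM of Hc (2.04 times). C8g was the exception at 304 CPM, within the range of the 7 female libraries. Of the 16 complement genes, Hc, C6, C8a, C8b and C9 were the 5 at 2 or more times the female Fl/Fl mean. Of the 24 coagulation genes 0 were, where 4.14% of all tested genes were. Pathway genes outside the 40 reached that ratio too, among them C4a at 14.7 times and F2r, a thrombin receptor gene, at 2.11 times. C6 ranked 22 by this ratio among the 16420 tested genes.

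**Figure D4:**
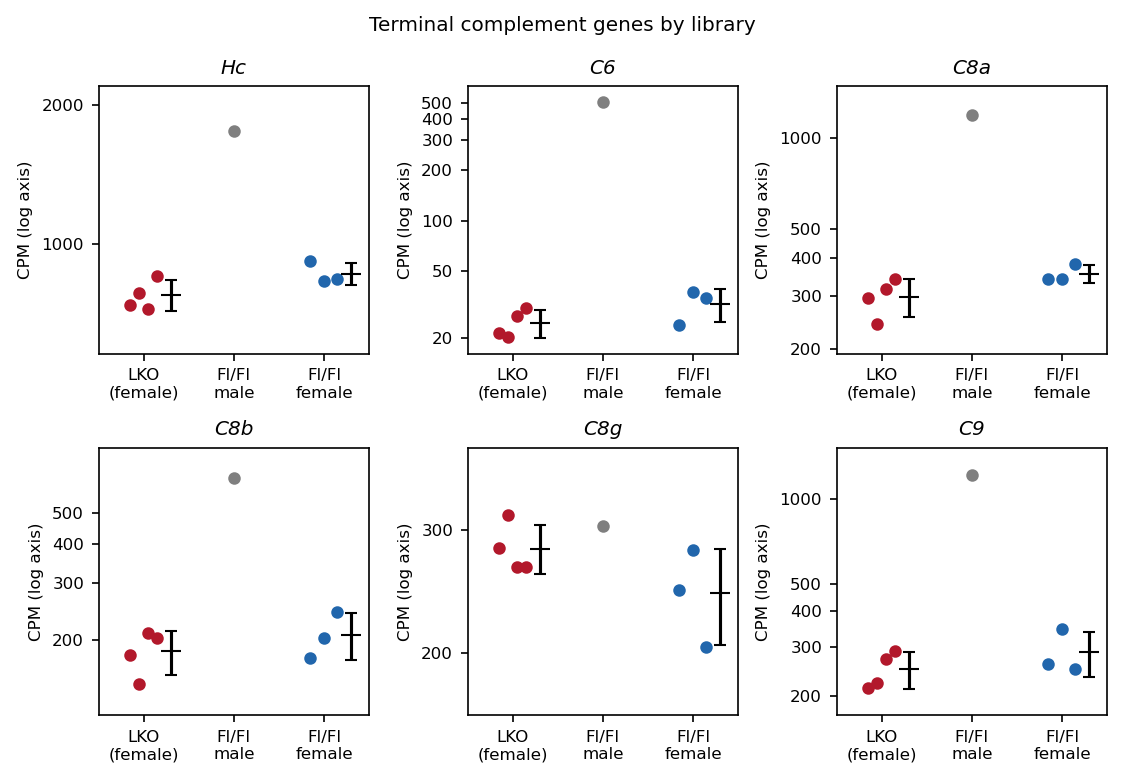
Points are CPM per library on log axes for LKO (4 female livers), male Fl/Fl (1) and female Fl/Fl (3), with black bars for mean ± SD of LKO and female Fl/Fl. The male Fl/Fl point lies above all female points for Hc, C6, C8a, C8b and C9, and among the LKO points for C8g.

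The promoter windows of C6 and C9 are shown because, of the 40 genes, they had the largest ratios of the male library to the female Fl/Fl mean. Both genes lie on chromosome 15, on the same strand and 1630.4 kb apart, while C8a and C8b lie 11.1 kb apart on chromosome 4 and point towards each other. Windows and capitals are as for fibrinogen.
C6, chr15:4726960-4727259, plus strand: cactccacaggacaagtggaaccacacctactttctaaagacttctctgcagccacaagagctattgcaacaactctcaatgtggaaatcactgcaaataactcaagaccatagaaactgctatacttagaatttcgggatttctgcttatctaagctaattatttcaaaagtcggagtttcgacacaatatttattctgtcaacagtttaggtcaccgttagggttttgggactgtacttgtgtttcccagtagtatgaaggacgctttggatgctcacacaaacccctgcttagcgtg
C9, chr15:6445096-6445395, plus strand: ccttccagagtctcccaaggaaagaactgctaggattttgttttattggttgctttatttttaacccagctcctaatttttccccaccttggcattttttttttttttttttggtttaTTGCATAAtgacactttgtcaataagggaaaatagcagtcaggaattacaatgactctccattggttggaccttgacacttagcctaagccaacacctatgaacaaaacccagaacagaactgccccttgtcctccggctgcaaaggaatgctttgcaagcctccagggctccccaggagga

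The C9 window held 1 match, to the C/EBP motif, and the C6 window held none of the letters searched. C8a held 1 match each to the HNF1 motif and the STAT motif, and C8b 1 to the HNF1 motif.

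With 1 male library, its sex and the state of that liver, which was also at high Dbp (46.1 CPM), cannot be told apart. The 9 acute phase genes summed to 20827 CPM in it, against 7736 to 8256 CPM in LKO and 6377 to 8385 CPM in female Fl/Fl, and each of the 9 lay above all 7 female libraries; their part in the complement values was not tested. Albumin took 5.47% of its counted reads, against 9.63 to 10.3% in LKO and 10.4 to 11.2% in female Fl/Fl. The male library lay above all 7 female libraries in 12 of 24 coagulation genes and 12 of 16 complement genes, where this held for 20.8% of all tested genes. It lay below all of them in 6 coagulation genes and 2 complement genes, where this held for 20.3%. Between LKO and female Fl/Fl, the acute phase genes Saa1 and Saa3 rose and the other 7 did not pass with edgeR. Over all tested genes, 1.02% passed on the higher side. Saa3 lay close to the threshold (adjusted p = 0.0455), and how these calls fared in other settings is not given here. Saa1, a serum amyloid, held 18.7 ± 3.28 CPM in LKO and 7.62 ± 1.90 CPM in female Fl/Fl (adjusted p = 0.0204).

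For terminal complement, the size of the genotype difference depended on whether the male library was counted as a plain control. With no sex term, the edgeR log2 fold change of C6 was -2.60 ± 1.14 in place of -0.37 ± 0.18, that of C9 was -1.06 in place of -0.20, that of C8a -0.91 in place of -0.25, that of C8b -0.78 in place of -0.17 and that of Hc -0.49 in place of -0.15. None of the 5 passed either way, with adjusted p-values of 0.637 to 0.678 for no sex term. The authors' deposited table lists the same genes at log2 -2.60 for C6, -1.06 for C9, -0.92 for C8a, -0.78 for C8b and -0.49 for Hc. C6 has no p-value in that table, so its fold change there was not tested. In that table none of the 40 genes passed an adjusted p of 0.05, where 0.409% of all listed genes did. That share is taken over all listed genes, including those without a p-value.

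**Figure D5:**
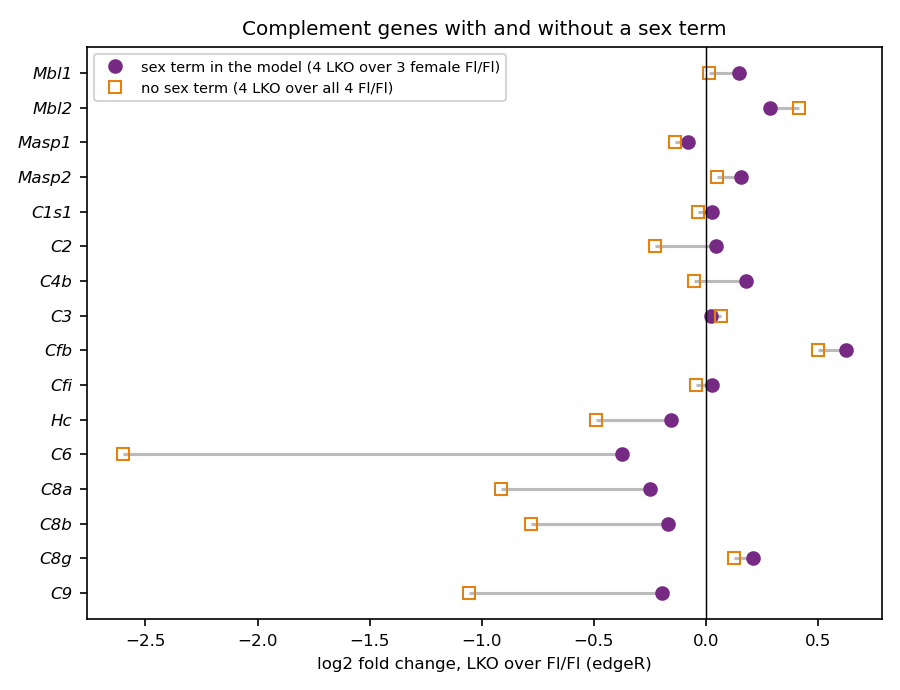
Filled circles are log2 fold changes of LKO over Fl/Fl with a sex term and open squares without one (edgeR), for the 16 complement genes. C6 moves from -0.37 with the sex term to -2.60 without it, and C9, C8a, C8b and Hc shift the same way by smaller amounts.

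Of 34 other complement genes in the table, 31 were tested and none passed with edgeR, where 1.41% of all tested genes did. DESeq2 called C1qa, C4a, C3ar1 and Fcna, at a threshold that 5.36% of its genes with an adjusted p passed. C1qa, a chain of the C1 recognition protein, held 44.4, 50.1, 49.6 and 37.8 CPM in LKO, against 22.3, 27.6 and 40.0 CPM in female Fl/Fl, and the groups overlapped. At an unadjusted p under 0.05, edgeR listed 4 on the higher side and 1 on the lower, where 16.1% of all tested genes passed that threshold. C3ar1, the receptor of the C3a fragment, held 2.13, 2.56, 2.46 and 2.26 CPM in LKO, against 3.43, 4.39 and 3.63 CPM in female Fl/Fl (log2 -0.70 ± 0.17, adjusted p = 0.0744). Fcna, a ficolin of the lectin pathway made by macrophages, held 31.8, 38.8, 30.9 and 30.9 CPM in LKO, against 24.1, 21.9 and 27.5 CPM in female Fl/Fl (log2 0.43 ± 0.12, adjusted p = 0.0990). The groups did not overlap for C3ar1 or Fcna. The 8 Kupffer cell and macrophage markers summed to 345 to 428 CPM in LKO and 309 to 459 CPM in female Fl/Fl, and none of the 8 passed or was at 0. C4bp, a fluid-phase regulator of C4, had a log2 fold change of -0.04 ± 0.09.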

How the data were processed

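RNA of 8 mouse livers was sequenced (4 LKO, 4 Fl/Fl). The authors deposited 1 table with raw read counts per gene, counts divided by a size factor per library (signal, not used in the tests), FPKM values, and their own log2 fold changes and p-values. Per the submitters' processing notes, the tools were STAR, fastp, featureCounts, HTSeq, edgeR, DESeq and DESeq2, with build mm10; their versions and roles and the strand setting are not given in the sources used here. Fold changes were computed from the deposited counts with edgeR 4.0.16 (R 4.3.3), except where the authors' values or another setting are named. The steps were filterByExpr, TMM and a robust quasi-likelihood fit with genotype and sex over all 8 libraries. Tests were two-sided, with a threshold of 0.05 after Benjamini-Hochberg adjustment over 16420 genes. The sex term takes up the single male library, so the genotype effect rests on 7 female libraries.

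Alternatives were DESeq2 1.42.0, limma 3.58.1 on log2(FPKM + 1), no sex term, other filters and size factors, leaving out each library and, added after seeing the data, leaving out Fl/Fl 5 and 7 together and a term for clock state. The members and lists were chosen with earlier results of these data known. Every member is named; CPM per library is given for the smallest p in each role group and for the fibrinogen chains. C6, C9, C3 and the sex contrast were chosen after their values were seen. Labels do not say whether libraries of a group come from separate litters, so p-values measure only the spread between these libraries, which may be technical in part. Libraries held 71491723 to 76622375 reads, so 3 reads equal 0.0385 to 0.0428 CPM.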

Additional observations from a re-analysis of the deposited data

Results flagged for a closer look

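In groups of 4 libraries, a library was picked out where its gap to the nearest other took up more of the group's range than Dixon's 95% critical value allows, which chance does in about 1 of 20 groups. Of 80 groups of 1 gene, 12 held such a library, 9 of them the male Fl/Fl library. That library stood at 504 CPM for C6, 1187 CPM for C8a, 642 CPM for C8b, 1219 CPM for C9 and 1760 CPM for Hc. It also stood apart at 37.3 CPM for C2, 376 CPM for C1s1, 159 CPM for Masp2 and 885 CPM for Serping1, each above the 3 female Fl/Fl libraries.

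LKO 3 held 3839 CPM of Fgb, against 3392 to 3433 CPM in the other LKO libraries. LKO 12 held 28.9 CPM of F8, against 20.8 to 22.1 CPM in the others. Fl/Fl 9 held 582 CPM of Serpind1, below the 635 to 646 CPM of the other Fl/Fl libraries.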

How the results depend on the processing

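Over 17 other settings and 40 genes, 651 results kept their direction and their side of the threshold. Another 28 changed sign and 1, F12 without Fl/Fl 9, gained a call. The cause of these changes was not tested. Among the settings, female libraries only and leaving out Fl/Fl 10 are the same fit, counted under both names. That fit lies close to the reported one, whose sex term takes up the male library. The calls over all genes numbered 232, against 1 with no sex term, 462 with no filter on low counts, 804 with DESeq2, 140 with limma on log2(FPKM + 1), 353 with a term for clock state and 26 without both Fl/Fl 5 and 7, the low-Dbp female controls (both settings chosen after seeing the data), and 4 to 727 when 1 library was left out, the lowest without Fl/Fl 5 and the highest without Fl/Fl 9. Leaving out 1 library gave 0 to 1 called coagulation genes, 0 to 1 of the other coagulation genes and 0 to 2 of the other complement genes. Of the other coagulation genes 0 were called with no sex term and 0 without both Fl/Fl 5 and 7 (edgeR), against F3 in the reported fit. Of the other complement genes 1 was called with no filter and 4 with DESeq2.

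With no sex term the median of complement was -0.049, and the log2 fold changes that changed sign were those of F8 (0.075), Pros1 (-0.033), C1s1 (-0.034), Cfi (-0.043), C4b (-0.055), Serping1 (-0.10) and C2 (-0.23). Without both Fl/Fl 5 and 7 they were F9 (0.012), Hrg (0.15), C1s1 (-0.0056), Kng2 (-0.0090), Plg (-0.022), C3 (-0.031), Serping1 (-0.031), Pros1 (-0.057) and Cfi (-0.12). With a term for clock state it was Serping1 (-0.0026). When 1 library was left out, sign changes were seen in C2 (-0.049 to 0.12), C3 (-0.0055 to 0.047), Cfi (-0.027 to 0.096), Kng2 (-0.016 to 0.046), Pros1 (-0.041 to 0.10), Serpinc1 (-0.0048 to 0.074) and Serping1 (-0.019 to 0.036). No paired analysis was possible because the sources used here give no litter or other pairing of LKO and Fl/Fl livers. With 4 and 3 female libraries, small differences could go unseen, within the intervals given.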

Other observations

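C6 reads numbered 0.0911 to 0.104 for each C9 read in LKO, against 0.0916 to 0.138 in female Fl/Fl, and the male Fl/Fl library had 0.414. For C8a and C8b, chains of 1 protein, the ratio of reads was 1.52 to 1.68 in LKO, against 1.57 to 1.95 in female Fl/Fl, with 1.85 in the male library.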
